A study of Homo sapiens with 15 samples.

Results

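The histone genes were every protein-coding gene with a symbol that began with H1- and a digit, H2AC, H2AZ, H2AX, H2AJ, H2BC, H3C, H3-, H4C or MACROH2A. There were 85 such genes against 60649 genes in the count table. The rule used symbols and no measured value, but it was set with earlier results of these data known. By symbol, 71 were replication-dependent genes and 14 were replacement genes, and the comparison of these classes is the subject here. RNA was sequenced from K562 cells, an established chronic myeloid leukaemia line that carries the BCR-ABL fusion. Untreated cells and cells given martinostat, a hydroxamate inhibitor of histone deacetylases, at 0.15, 0.25, 0.5 or 1 µM for 24 h made up 5 groups of 3 libraries. The labels call these libraries biological replicates. No vehicle is named for the untreated cells, and no other drug or allele separated the groups. RNA was selected by its poly(A) tail before strand-directed libraries were made.

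A nucleosome wraps DNA around an octamer of the core histones H2A, H2B, H3 and H4, and the linker histone H1 binds where DNA enters and leaves it. Replication-dependent histone genes lie in clusters, mostly lack introns and are transcribed in S phase, and their mature mRNA ends in a conserved stem-loop instead of a poly(A) tail. The stem-loop is bound by SLBP, which the RNA needs for its processing, translation and timed decay. Replacement histones such as H3.3, H2A.Z and macroH2A are made throughout the cell cycle from polyadenylated mRNA and are placed into chromatin outside replication by dedicated chaperones. In a poly(A)-selected library a replication-dependent gene is therefore counted through RNA that carried a poly(A) stretch. A change in how much of its RNA was made and a change in how much of it was polyadenylated cannot be told apart here.

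The stem-loop separated the classes by sequence. The pattern searched for within 100 bases after the stop codon was a stem of 6 base pairs closing a loop of 4 bases. The stem had to begin with GG and end with CC, and G-T pairs were allowed. The loop had to begin with T, then T or C, then T, A or C. This pattern was found in 70 of 71 replication-dependent genes and in 2 of 14 replacement genes, H2AX and H3-7. Among all 19919 protein-coding genes searched in the same way, histone genes included, 91 (0.457%) had one. The exception among replication-dependent genes was H2BC12L, which lies on chromosome 21, whereas 55 of the 71 genes lie on chromosome 6 and 14 on chromosome 1. It began between 23 and 68 bases after the stop codon in the replication-dependent genes. The examples below are the genes on which the results turn, one for each family and a pair for H2B and H4 in which the members behaved differently, and they are written as DNA, 5′ to 3′ on the gene's strand, with the 16 bases of the stem-loop in capitals and 6 bases on each side.
H1-2: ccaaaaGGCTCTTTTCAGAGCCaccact
H2AC8: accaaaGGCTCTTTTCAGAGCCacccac
H2BC8: ctcaaaGGCTCTTTTCAGAGCCactcaa
H2BC12: cccaaaGGCTCTTTTAAGAGCCacttaa
H3C10: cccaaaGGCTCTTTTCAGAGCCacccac
H4C8: accaaaGGCCCTTTTCAGGGCCgcccac
H4C9: taaaaaGGCCCTTTTTAGGGCCcctaag
H2AX: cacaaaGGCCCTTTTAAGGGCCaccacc
On the hg38 build these stem-loops lie in 3′ untranslated regions, at chr6:26055744-26055759 on the minus strand for H1-2, chr6:26217417-26217432 on the plus strand for H2AC8, chr6:26216218-26216233 on the minus strand for H2BC8 and chr6:27146366-27146381 on the minus strand for H2BC12. Those of H3C10 and H4C9 are on the plus strand at chr6:27810516-27810531 and chr6:27139654-27139669, that of H4C8 on the minus strand at chr6:26285131-26285146 and that of H2AX on the minus strand at chr11:119094898-119094913. The left arm of the stem read GGCTCT in all H1, H3 and H2B stem-loops of the replication-dependent class and in 16 of its 17 H2A stem-loops, the other being GGTTCT in H2AC15. It read GGCCCT in all 15 H4 genes and in H2AX, and the GG that opens it was fixed by the search. H2BC8 and H2BC12 thus shared this arm, and so did H4C8 and H4C9. Their loops differed, being TTTC in H2BC8 and H4C8, TTTA in H2BC12 and TTTT in H4C9. These pairs were picked for the different changes given further on, and a relation of the stem-loop to the change was not tested.

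The libraries held between 23755510 and 32805574 counts. The count table had 83 of the 85 histone genes, and H2AC18 and H2AC19, which it did not hold under their identifiers, were not analysed here. Of the 83, 62 passed the filter on low counts and were tested (52 replication-dependent, 10 replacement), among 23711 genes tested in all. The other 21 never exceeded 16 counts in a library, and H2AC15 had no count in any, which allows up to 3 counts per library. The 4 untested replacement genes each had at most 6 counts in a library. The filter did not require counts in untreated cells, so a gene low there could be tested through its treated libraries alone. Levels are counts per 1000000 of the library size scaled by TMM (CPM). All comparisons with untreated cells used the same 3 untreated libraries. Replicate 3 at 0.25 µM and replicate 3 at 0.5 µM stood apart from the other 13 libraries, with scores of 70.1 and 75.4 on the third principal component of all tested genes against at most 16.02 elsewhere, so the sums, the class medians and the counts of calls are also given without them, a comparison chosen after seeing the data. The K562 markers GATA1, TAL1, HBZ, EPOR and TFRC were present in untreated cells, HBZ at 986 to 1090.0 CPM, but the embryonic globin HBE1 was at only 0.0818 to 0.270 CPM.

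Poly(A)-selected RNA of the replication-dependent genes rose relative to that of the replacement genes with martinostat. Their summed level was 3419, 3904 and 3546 CPM in the untreated libraries, 4373, 3969 and 3931 with 0.15 µM, 4686, 5711 and 2817 with 0.25 µM, 8487, 7857 and 3563 with 0.5 µM and 7510.4, 6591 and 6827 with 1 µM. The untreated and 1 µM libraries did not overlap, while replicate 3 at 0.25 µM and at 0.5 µM lay among or below the untreated values. The replacement genes summed to 2549, 2826 and 2706 CPM, 1854, 1662 and 1669 CPM, 1502, 1762 and 1214 CPM, 2513, 2580.0 and 1681 CPM and 2460.4, 2387 and 2226 CPM in the same order. Every library at 0.15, 0.25 and 1 µM was below every untreated library for this sum, and at 0.5 µM replicate 2 overlapped them. The direction at 1 µM depends on the scaling, since the replacement genes took 0.215 ± 0.00669% of all counts in untreated cells, 0.177 ± 0.0151% at 0.15 µM and 0.241 ± 0.0117% at 1 µM (SD, n = 3). In bulk RNA, fewer cells of a type and less RNA per cell cannot be told apart.

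The ratio of the sums does not depend on the scaling of the libraries. It was 1.34 ± 0.0357 (SD, n = 3) in untreated cells, 2.37 ± 0.0181 (SD, n = 3) at 0.15 µM, 2.89 ± 0.500 (SD, n = 3) at 0.25 µM, 2.85 ± 0.652 (SD, n = 3) at 0.5 µM and 2.96 ± 0.172 (SD, n = 3) at 1 µM. All 12 treated libraries were above all 3 untreated libraries, the lowest treated ratio being 2.12 in replicate 3 at 0.5 µM and the highest untreated ratio 1.38. Replicates 1 and 2 alone were at 3.12 and 3.24 with 0.25 µM and at 3.38 and 3.05 with 0.5 µM. The first step of the ratio, at 0.15 µM, came with a lower replacement sum, and replication-dependent RNA was at 4091 ± 245 CPM against 3623 ± 252 CPM in untreated cells (SD, n = 3). H1-2 alone made up 42.8 ± 1.11% of the replication-dependent sum in untreated cells and 47.2 ± 1.16% at 1 µM (SD, n = 3). Without H1-2 the replication-dependent sum in TMM-scaled CPM was not higher at the lower doses. It was then 2072 ± 169.5 CPM in untreated cells, 1895 ± 167 at 0.15 µM, 1919 ± 574 at 0.25 µM and 3687 ± 317 at 1 µM (SD, n = 3). The direction at the lower doses depends on the scaling. The TMM factors were 0.784 to 0.828 in untreated libraries, 0.985 to 1.05 at 0.15 µM and 1.07 to 1.28 at 0.25 µM. Without the highest member of each class the ratio was 0.961 in untreated cells, 1.34 and 1.60 with the lower doses, and 2.26 and 2.35 with the higher doses. In all, with H1-2 included, replication-dependent genes took 0.290 ± 0.0162% of a library's counts in untreated cells. They took 0.420 ± 0.0355% at 0.15 µM, 0.496 ± 0.125% at 0.25 µM and 0.713 ± 0.0491% at 1 µM (SD, n = 3). These sums are descriptions and were not tested.

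**Figure D1:**
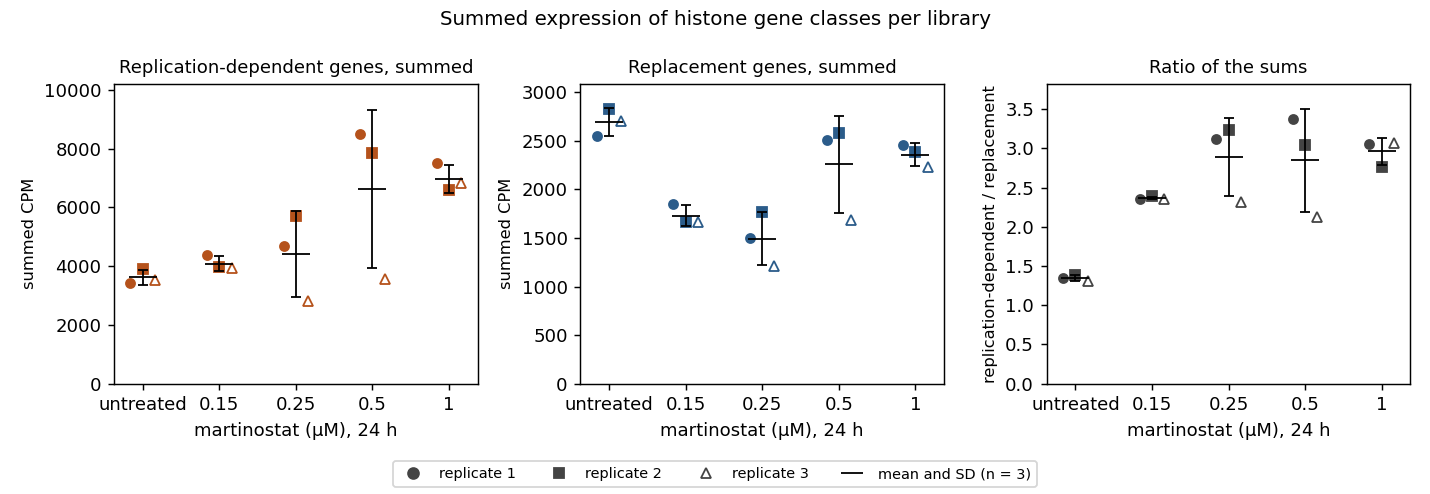
Summed CPM of the replication-dependent genes, summed CPM of the replacement genes and the ratio of the sums (vertical axes) in each library against the martinostat dose in µM, with points for libraries and bars for the mean and SD. The ratio lies between 1.31 and 1.38 in untreated cells and between 2.76 and 3.07 at 1 µM, and the open triangles of replicate 3 sit lowest at 0.25 and 0.5 µM.

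Gene by gene, the calls of edgeR's quasi-likelihood test (Benjamini-Hochberg adjusted p under 0.05 over all genes tested) separated the low from the high doses. At 0.15 µM, 9 of 52 tested replication-dependent genes rose and 2 fell, while 51.2% of all tested genes were called (31.9% higher, 19.4% lower). At 0.25 µM 16 rose and 8 fell, against 62.3% called among all genes (37.4% higher, 24.8% lower). At 0.5 µM 34 rose and 4 fell, against 66.9% (39.4% higher, 27.6% lower). Those 4 were H2AC4, H2BC11, H3C7 and H4C1, and none was called lower there without 0.5 µM replicate 3, without untreated replicate 3, with TMM on genes of at least 10 CPM or with at least 10 counts in every library, while 30 to 38 genes were higher in the 17 alternative settings. At 1 µM 36 rose and none fell, against 66.2% (38.8% higher, 27.5% lower). The share of replication-dependent genes called higher was thus below the background at 0.15 µM and above it at 0.5 and 1 µM. Of the 10 tested replacement genes, 1 rose and 4 fell with the lowest dose, none rose and 6 fell with the next, 4 rose and 4 fell with 0.5 µM, and 4 rose and 3 fell with 1 µM. Libraries of untreated cells did not overlap those at 0.15 µM in 23 of the 52 replication-dependent genes, beside 63.2% of all genes, nor those at 1 µM in 44, beside 74.9%. Among the 5 groups, 44 of 52 replication-dependent and 8 of 10 replacement genes differed, against 73.6% of all tested genes. Without replicate 3 at 0.25 and 0.5 µM, 12 replication-dependent genes rose and 9 fell at 0.15 µM, 22 rose and 10 fell at 0.25 µM, 37 rose and 2 fell at 0.5 µM and 39 rose and 1 fell at 1 µM. Of all 24200 genes tested in that fit, 34.7%, 37.5%, 38.5% and 41.4% were higher and 22.5%, 24.9%, 27.5% and 28.5% lower at these doses.

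The sizes of the changes followed the same order. The median log2 fold change of the 52 replication-dependent genes was 0.06 and 0.18 with the lower and 1.55 and 1.70 with the higher doses. That of the 10 replacement genes was -0.55, -0.67, 0.29 and 0.32, and that of all 23711 tested genes 0.28, 0.32, 0.34 and 0.32. Without the outlying replicate 3 libraries the replication-dependent medians were 0.06, 0.22, 1.60 and 1.74 and the replacement medians -0.55, -0.53, 0.41 and 0.37. Scaling moved these levels together. At 1 µM, scaling by library totals put the median of all genes at 0.67 and that of the replication-dependent genes at 2.05, and TMM over genes of at least 10 CPM put them at 0.70 and 2.08. Single replication-dependent genes ranged from -0.94 to 4.84 at 1 µM, so the class did not move as 1 unit.

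**Figure D2:**
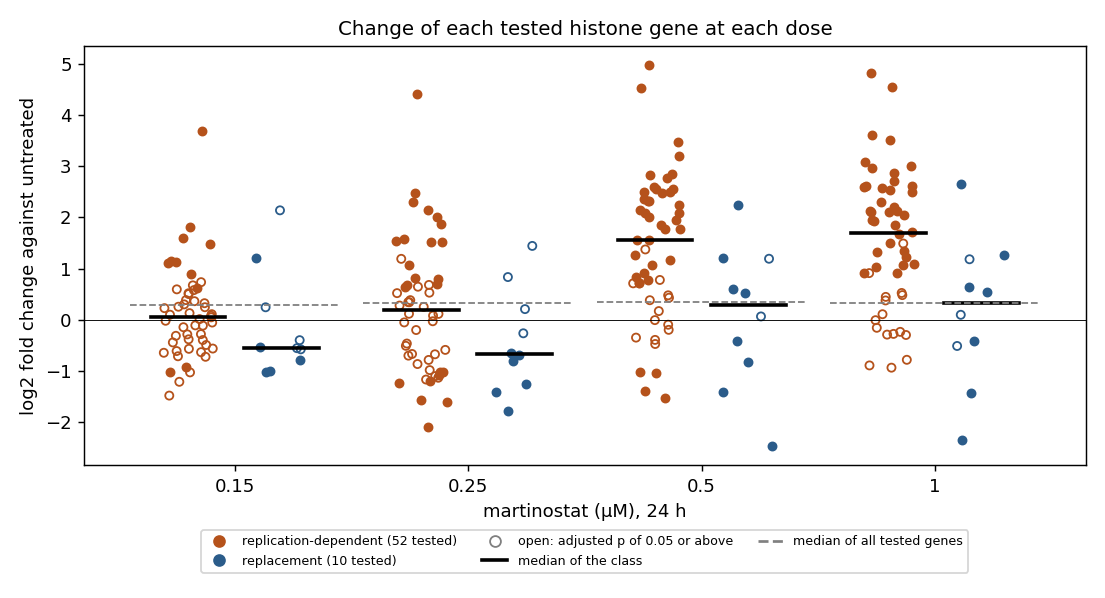
Log2 fold change against untreated cells (vertical axis) of each of the 52 replication-dependent and 10 replacement genes tested at each martinostat dose in µM, with filled points for adjusted p under 0.05, black bars for class medians and dashed lines for the median of all tested genes. The replication-dependent median lies at 0.06 and 0.18 at the lower doses and at 1.55 and 1.70 at the higher doses, while the replacement genes spread to both sides at 1 µM.

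The step between 0.25 and 0.5 µM carried most calls between neighbouring doses. From 0.25 to 0.5 µM 36 replication-dependent genes rose and none fell, where 30.4% of all tested genes were called (14.4% higher, 16% lower), and 4 replacement genes rose and 1 fell. Without the outlying replicate 3 libraries 35 replication-dependent genes rose and none fell at this step, against 15.4% of all genes higher and 16.4% lower. From 0.15 to 0.25 µM 7 rose and 1 fell, where 12.3% of all genes were called (4.96% higher, 7.32% lower), and 1 replacement gene fell. That count was unstable, since the 9 histone genes called became 4 without 0.15 µM replicate 1, 5 without 0.15 µM replicate 2 and 19 without the outlying libraries, where 16 replication-dependent genes rose, against 6.57% of all genes. Between 0.5 and 1 µM edgeR called 0 of 62 histone genes and 0% of all genes, 0 histone genes had an unadjusted p under 0.05 against 372 of all genes, and DESeq2 called 0 histone genes too. From 0.15 to 1 µM 37 replication-dependent genes rose and none fell, where 44.5% of all genes were called (21.5% higher, 23.1% lower), and 5 replacement genes rose and 2 fell. By trajectory, 9 of 52 replication-dependent genes were higher at all 4 doses (H2AC8, H2AC13, H2BC5, H2BC8, H2BC26, H3-4, H3C10, H4C8 and H4C12), a pattern of 24.6% of all tested genes. A further 7 were higher from 0.25 µM on, against 5.6% of all genes, and 17 at 0.5 and 1 µM only, against 5.32%. Of the 62 histone genes 8 were lower at 0.15 or 0.25 µM and not called at 1 µM, against 5% of all genes, among them H2AC6, H4C1, H4C2 and H2AX. No dose called 10 of the 62, which included H2BC12 and H4C9, against 20.1% of all genes. These patterns rest on the same 3 untreated libraries at every dose.

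Among the linker histones, all 5 tested replication-dependent H1 genes were higher at 1 µM, against 38.8% of all tested genes. Their median log2 fold change was 1.22. H1-2, a somatic linker histone, was the highest histone gene per kilobase of exon, at 2122 ± 124 CPM per kilobase in untreated cells and 4499 ± 237 at 1 µM (SD, n = 3). Its level was 1508, 1656 and 1490.3 CPM without drug, 2293, 2122 and 2174 with 0.15 µM, 2695, 3256 and 1504 with 0.25 µM, 4607, 3834 and 1370.0 with 0.5 µM and 3488, 3198 and 3179.8 with 1 µM. All 1 µM libraries were above all untreated ones, but replicate 3 at 0.5 µM was below them. The change passed the test at 1 µM (log2 fold change 1.08, SE 0.33, edgeR adjusted p = 0.00774) and not at 0.15 µM (log2 fold change 0.50, edgeR adjusted p = 0.211), although the libraries at 0.15 µM did not overlap the untreated ones. Without the outlying replicate 3 libraries the same 0.50 at 0.15 µM had an edgeR adjusted p of 5.82e-04. H1-3, another somatic linker histone, was among the 4 genes with the smallest called rise (log2 fold change 1.04, SE 0.23, edgeR adjusted p = 6.27e-04).

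H1-4, which encodes a further somatic linker histone, fell at the lower doses and rose at the higher ones. It read 24.7, 24.0 and 18.9 CPM without drug, 12.8, 12.0 and 8.57 with 0.15 µM, 12.9, 12.0 and 7.09 with 0.25 µM, 60.8, 54.2 and 47.4 with 0.5 µM and 64.5, 45.9 and 47.0 with 1 µM. Every library at 0.15 and 0.25 µM was below, and every library at 0.5 and 1 µM above, all untreated libraries. It was lower at 0.15 µM (log2 fold change -1.02, SE 0.22, edgeR adjusted p = 6.55e-04) and higher at 1 µM (log2 fold change 1.22, SE 0.21, edgeR adjusted p = 5.72e-05). Only H1-4 and H3-3B of the 62 histone genes had both calls and were called higher at 1 than at 0.15 µM, a pattern of 0.536% of all tested genes.

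Of the 13 tested H2A genes of the replication-dependent class 6 were higher at 1 µM, and of the 15 H2B genes 10, against 38.8% of all tested genes. H2AC8 and H2BC8, neighbours on chromosome 6 whose stem-loops are shown above, rose at every dose. H2AC8 had 20.8, 19.6 and 19.7 CPM untreated, then 60.7, 53.4 and 68.3 with 0.15 µM, 81.2, 90.5 and 47.0 with 0.25 µM, 147, 151 and 64.3 with 0.5 µM and 165, 129 and 143 with 1 µM. H2BC8 had 31.8, 31.8 and 37.3 CPM untreated, then 79.3, 68.5 and 71.0 with 0.15 µM, 106, 130.1 and 56.5 with 0.25 µM, 288, 293 and 109.8 with 0.5 µM and 292, 237 and 259 with 1 µM. In both genes all treated libraries were above all untreated ones, and replicate 3 at 0.25 and 0.5 µM was the lowest of its group. At 1 µM the changes were 2.87 for H2AC8 (SE 0.29, edgeR adjusted p = 1.78e-07) and 2.97 for H2BC8 (SE 0.34, edgeR adjusted p = 1.60e-06) on the log2 scale.

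H2BC12, the second highest histone gene per kilobase in untreated cells at 1748 ± 173 CPM per kilobase (SD, n = 3), was not called at any dose. It read 785, 956 and 855 CPM without drug, 804, 675 and 608 with 0.15 µM, 544, 765 and 285 with 0.25 µM, 858, 911 and 267 with 0.5 µM and 846, 609.8 and 745 with 1 µM. The untreated and 1 µM libraries overlapped (log2 fold change -0.24, SE 0.38, edgeR adjusted p = 0.601). H2AC6, an H2A gene, was at 308, 368 and 339.8 CPM without drug, 190.0, 175 and 171 with 0.15 µM, 173, 211 and 117 with 0.25 µM, 379.9, 418 and 212 with 0.5 µM and 402, 329.5 and 361 with 1 µM. It was lower at 0.15 µM (log2 fold change -0.92, SE 0.22, edgeR adjusted p = 0.00184), and at 1 µM its libraries overlapped the untreated ones (log2 fold change 0.11, SE 0.22, edgeR adjusted p = 0.685).

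Other H2A and H2B genes rose from lower levels. H2AC11 was at 38.2, 41.6 and 32.2 CPM without drug and 198, 186 and 165 CPM with 1 µM (log2 fold change 2.30, SE 0.21, edgeR adjusted p = 1.38e-08). H2AC25 went from 47.2, 48.7 and 47.2 CPM to 159.8, 237 and 148 CPM (log2 fold change 1.93, SE 0.35, edgeR adjusted p = 2.09e-04), and H2BC5 from 26.4, 28.6 and 28.2 CPM to 176, 149 and 159.8 CPM (log2 fold change 2.54, SE 0.15, edgeR adjusted p = 4.50e-11). In none of these 3 genes did the untreated and 1 µM libraries overlap. H2BC26, among the 4 genes with the largest rise, was at 1.64, 0.927 and 0.939 CPM and 15.2, 12.1 and 13.0 CPM (log2 fold change 3.52, SE 0.24, edgeR adjusted p = 2.33e-10). The smallest called rises of the whole class were in H2BC9 (0.91), H2BC7 (0.92), H1-3 and H2BC15 (1.08), all H2B genes but for H1-3.

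Of the 8 tested H3 genes of the replication-dependent class 7 were higher at 1 µM, against 38.8% of all tested genes. Their median log2 fold change of 2.12 was the highest of the 5 families. Both values include H3C1 and H3-4, which had at most 4 counts in an untreated library and passed the filter through treated libraries. H3C10, which encodes the canonical H3.1, made up most of the summed CPM of the 8 genes. It was at 56.2, 60.2 and 57.1 CPM without drug, 156, 146 and 181 with 0.15 µM, 279.9, 283 and 209 with 0.25 µM, 443, 470.5 and 331 with 0.5 µM and 495, 421 and 478 with 1 µM. Libraries of untreated cells, 0.15 µM and 0.25 µM did not overlap one another, and the treated libraries were all above the untreated ones. The log2 fold change was 1.47 at 0.15 µM (SE 0.16, edgeR adjusted p = 5.86e-07) and 3.01 at 1 µM (SE 0.17, edgeR adjusted p = 2.91e-11). H3C1, also an H3.1 gene, had the largest fitted fold change of the class from a level near 0, with 0.123, 0 and 0.157 CPM without drug and 4.08, 1.87 and 2.34 CPM with 1 µM (log2 fold change 4.84, SE 0.70, edgeR adjusted p = 6.98e-06). H3-4, a testis-enriched H3 gene, had 1 count over the untreated libraries and 35 over those at 1 µM, a depth-adjusted ratio of 31.0 with an exact 95% interval from 5.20 to 1257 that covers counting error only.

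Within the H3 family the balance of the classes shifted. Replication-dependent genes made up between 6.23 and 6.72% of the summed H3 CPM in untreated cells and between 26.0 and 30.4% at 1 µM. Within H2A the share was between 23.1 and 24.2% in untreated cells and between 56.8 and 59.5% at 1 µM. Within H1 it was between 91.0 and 92.9% and between 89.2 and 92.0%. The untreated and 1 µM ranges lay apart for H3 and H2A. They overlapped for H1, in which the replacement gene H1-10 rose as well.

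Of the 11 tested H4 genes, all of which encode the same core histone, 8 were higher at 1 µM, against 38.8% of all tested genes. H4C8 was at 45.7, 56.8 and 56.5 CPM without drug, 81.7, 74.1 and 88.0 with 0.15 µM, 114, 119.7 and 102 with 0.25 µM, 209, 219 and 216 with 0.5 µM and 250.2, 209 and 237 with 1 µM. Replicate 3 did not stand low in this gene at 0.5 µM, and all treated libraries were above all untreated ones (log2 fold change 2.13, SE 0.14, edgeR adjusted p = 1.50e-10 at 1 µM). H4C9, the highest H4 gene per kilobase in untreated cells at 525 ± 60.0 CPM per kilobase (SD, n = 3), was at 182, 228 and 215 CPM without drug, 175, 159.9 and 139 with 0.15 µM, 129.9, 182 and 79.1 with 0.25 µM, 193, 207 and 74.8 with 0.5 µM and 184, 148 and 176 with 1 µM. Its untreated and 1 µM libraries overlapped (log2 fold change -0.30, SE 0.32, edgeR adjusted p = 0.425), and without the outlying replicate 3 libraries its change of -0.40 at 0.15 µM had an edgeR adjusted p of 0.0125. H4C12, from lower levels, had 1.68, 1.31 and 1.29 CPM without drug and 18.0, 17.8 and 16.9 CPM with 1 µM (log2 fold change 3.62, SE 0.23, edgeR adjusted p = 1.15e-10).

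**Figure D3:**
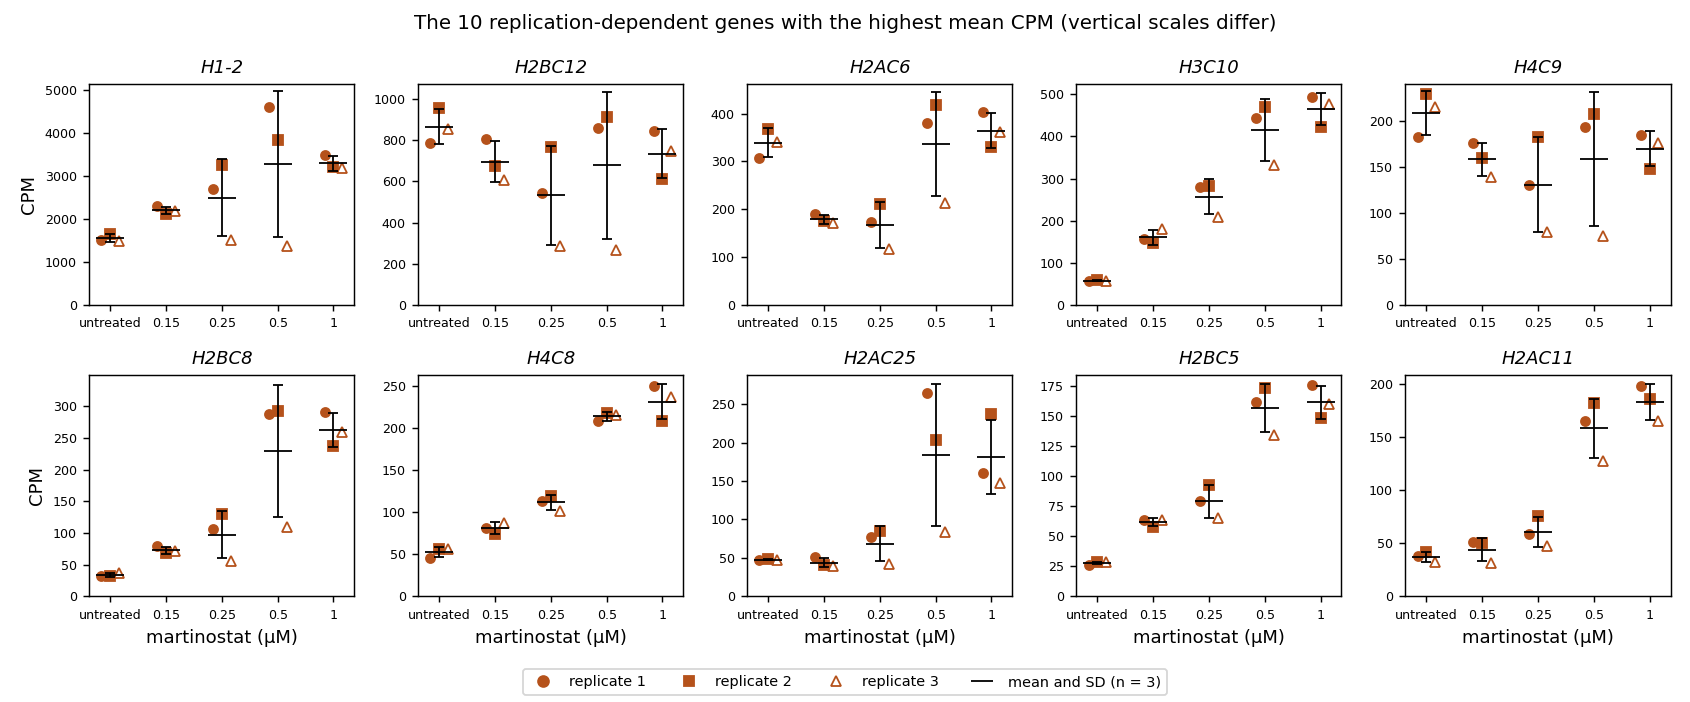
CPM in each library (vertical axis, from 0, with a scale of its own in each panel) against the martinostat dose in µM for the 10 replication-dependent genes with the highest mean CPM, with points for libraries and bars for the mean and SD. H3C10, H4C8, H2BC5 and H2BC8 climb at every dose up to 0.5 µM, H2AC6 falls and returns to its untreated level, and H2BC12 and H4C9 overlap the untreated libraries at 1 µM.

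The replicate 3 libraries that stood apart did not move all histone genes alike. At 0.5 µM the ratio of replicate 3 to the mean of replicates 1 and 2 was 0.216 in H4C3, 0.286 in H2BC11, 0.302 in H2BC12 and 0.325 in H1-2, but 1.41 in H2BC18 and 2.76 in H4C5. At 0.25 µM it was 0.365 in H2BC11, 0.506 in H1-2 and 1.94 in H4C5. H1-2, H2BC11 and H2BC12 were thus low in replicate 3 at both doses (H2BC12 at 0.435 of the mean at 0.25 µM), and H4C5 was high. These genes were singled out after their values were seen.

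Many H2A and H2B genes lie head to head, and 13 such pairs of histone genes transcribed away from each other started within 500 bases of each other. The sequences between the annotated starts are shown for a pair that rose together, H2BC8 and H2AC8, and for one that did not, H2BC11 and H2AC11. They are given on the plus strand of hg38, 5′ to 3′, with the H2B gene to the left and the H2A gene to the right in each. Capitals mark matches on either strand to CCAAT, which the factor NF-Y binds, to TATAAA, the letters of a TATA box, and to ATTTGCAT, the octamer that OCT1 binds at H2B promoters, and overlapping matches are merged.
H2BC8/H2AC8: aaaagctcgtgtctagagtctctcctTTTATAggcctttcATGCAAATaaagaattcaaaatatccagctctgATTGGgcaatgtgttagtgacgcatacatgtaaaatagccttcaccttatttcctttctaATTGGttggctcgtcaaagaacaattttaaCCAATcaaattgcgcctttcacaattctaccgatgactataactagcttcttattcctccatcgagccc
H2BC11/H2AC11: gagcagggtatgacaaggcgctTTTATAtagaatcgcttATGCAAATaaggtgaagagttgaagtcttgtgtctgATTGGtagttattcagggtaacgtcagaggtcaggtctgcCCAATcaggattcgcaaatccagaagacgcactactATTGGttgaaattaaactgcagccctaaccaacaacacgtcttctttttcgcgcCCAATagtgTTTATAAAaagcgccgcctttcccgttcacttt
The first is chr6:26216689-26216920 (232 bases) and the second chr6:27132796-27133042 (247 bases), both between the annotated starts of the genes. Both hold all 3 motifs. In RefSeq promoters of 300 bases (GRCh38.p14), which matched 77 of the 85 histone genes, CCAAT occurred in 34.6% of 35116 promoters of all genes and in 59 of 69 replication-dependent ones, including every H1, H2A, H2B and H3 promoter and 3 of 13 H4 promoters. TATAAA occurred in 11.5% of all promoters and in 46 of 69 replication-dependent ones. The octamer occurred in 1.77% of all promoters, 11 of 16 H2A and 15 of 20 H2B promoters, 1 of 14 H3 promoters and 0 of the 6 H1 and 13 H4 promoters.

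Partners on either side of an upstream region did not always have the same call, which is not a test of a difference between them. In 10 pairs both genes were tested, and at 1 µM both genes were higher in 3 pairs, 1 gene was higher and the other not called in 5, and neither was called in 2. Of the 5, H2AC17/H2BC17 and H3C12/H2BC17 share a gene. In H2AC7/H2BC7 the uncalled H2AC7 had the larger log2 fold change (1.49, SE 0.80, against 0.92, SE 0.26). The difference between the partners' log2 fold changes ran from 0.10 in H2BC8/H2AC8 to 3.08 in H2BC11/H2AC11. H2BC11 had 128, 136 and 120.2 CPM untreated, then 100, 92.8 and 89.4 with 0.15 µM, 77.4, 86.7 and 29.97 with 0.25 µM, 86.0, 78.7 and 23.6 with 0.5 µM and 75.2, 78.1 and 69.6 with 1 µM. All libraries at 0.15 µM and at 1 µM were below the untreated ones for this gene, but the change passed the test only at 0.5 µM (log2 fold change -1.03, SE 0.41, edgeR adjusted p = 0.0399) and not at 1 µM (log2 fold change -0.79, SE 0.41, edgeR adjusted p = 0.107), where its partner H2AC11 rose by 2.30 on the log2 scale. The call at 0.5 µM was lost in 11 of 17 alternative settings, among them leaving out any 1 untreated library or 0.5 µM replicate 3, its lowest library (log2 fold change -0.64, edgeR adjusted p = 0.0693). Without both outlying replicate 3 libraries H2BC11 was called lower at 0.5 µM (log2 fold change -0.60, edgeR adjusted p = 2.10e-04) and at 1 µM (log2 fold change -0.74, edgeR adjusted p = 2.38e-06).

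Counts of the partners in the same library, which need no scaling, were compared as well. The ratio of H2AC11 to H2BC11 counts was 0.298, 0.305 and 0.268 in untreated cells and 2.64, 2.38 and 2.37 at 1 µM. The ratio of H2AC8 to H2BC8 counts was 0.654, 0.615 and 0.528 and 0.567, 0.545 and 0.552. The first ratio did not overlap between the groups and the second did. In 9 pairs with counts enough for such a ratio it did not overlap in 8. Single genes did not overlap between these groups in 74.9% of all tested genes. The share for ratios of other gene pairs was not measured, so the 8 are not a result about head-to-head pairs. An exact permutation test of 3 against 3 libraries cannot give a two-sided p below 0.1. H3C12 and H2AC17 overlap each other on the same strand, over 40.3% and 71.0% of their exon bases, and both face H2BC17, so their pairs are not separate. H2BC4 has 30.9% of its exon bases opposite another gene, and the strand setting of the counting is not given in the sources used here.

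**Figure D4:**
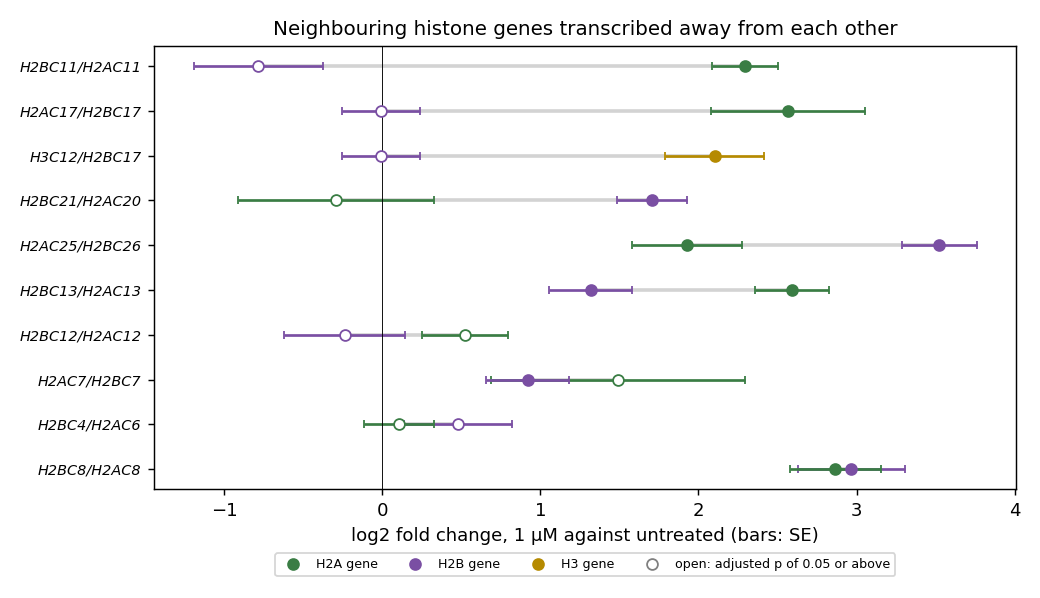
Log2 fold change at 1 µM against untreated cells (horizontal axis, bars show the SE) of both genes in the 10 head-to-head pairs with both genes tested, H2A in green, H2B in purple and H3 in yellow, with open points for adjusted p of 0.05 or above. H2BC8 and H2AC8 lie 0.10 apart at the bottom and H2BC11 and H2AC11 3.08 apart at the top.

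The replacement variants moved in both directions. H2AZ1, which encodes the main H2A.Z found at promoters and enhancers, fell most. Its level was 491, 584 and 544 CPM without drug, 292, 253 and 251 with 0.15 µM, 157, 189.8 and 125 with 0.25 µM, 104, 116 and 70.8 with 0.5 µM and 111, 96.0 and 109 with 1 µM. No treated library overlapped the untreated ones, and the 0.15 µM libraries lay above all libraries at the higher doses. The log2 fold change was -1.02 at 0.15 µM (SE 0.18, edgeR adjusted p = 1.13e-04) and -2.36 at 1 µM (SE 0.19, edgeR adjusted p = 2.39e-09). MACROH2A1, a variant with a large globular domain found in silenced chromatin, read 298, 328 and 341 CPM untreated, then 165, 164 and 150.1 with 0.15 µM, 124, 144 and 135 with 0.25 µM, 115, 122 and 126 with 0.5 µM and 125, 109 and 123 with 1 µM. It fell by a similar size at the lowest dose (log2 fold change -1.01, SE 0.13, edgeR adjusted p = 2.27e-06) and further at 1 µM (log2 fold change -1.44, SE 0.13, edgeR adjusted p = 9.95e-09), with no overlap between treated and untreated libraries.

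H2AZ2, the second H2A.Z gene, had 259.8, 289 and 292 CPM without drug and 219, 204 and 205 CPM with 1 µM (log2 fold change -0.42, SE 0.15, edgeR adjusted p = 0.0192). It was lower at all 4 doses, but the call at 1 µM was lost in 9 of 17 alternative settings, in which the log2 fold change reached -0.04. H2AX, phosphorylated around DNA breaks, was at 383, 375 and 376 CPM without drug, 285, 223 and 263 with 0.15 µM, 153, 177 and 94.4 with 0.25 µM, 236, 293 and 107 with 0.5 µM and 277, 250.1 and 267 with 1 µM. It was lowest in the 0.25 µM group and partly back at 0.5 and 1 µM. It passed the test at 0.25 µM (log2 fold change -1.42, SE 0.28, edgeR adjusted p = 3.05e-04) and 0.5 µM (log2 fold change -0.84, edgeR adjusted p = 0.0130) and not at 1 µM (log2 fold change -0.51, SE 0.27, edgeR adjusted p = 0.108), where without the outlying replicate 3 libraries its change of -0.47 had an edgeR adjusted p of 8.35e-04.

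The genes of H3.3, the replacement H3 placed at active genes and at heterochromatin, encode the same protein, and H3-3B passed the test at 0.15 and 1 µM while H3-3A did not, a difference that was not tested itself. H3-3B was at 501, 590.3 and 528 CPM without drug, 332, 314 and 294 with 0.15 µM, 305, 356 and 268 with 0.25 µM, 826, 839 and 665 with 0.5 µM and 879, 768 and 720.0 with 1 µM. As in H1-4, every library at 0.15 and 0.25 µM was below and every library at 0.5 and 1 µM above the untreated ones, and the changes passed the test at 0.15 µM (log2 fold change -0.78, SE 0.15, edgeR adjusted p = 3.30e-04) and at 1 µM (log2 fold change 0.55, SE 0.15, edgeR adjusted p = 0.00422). H3-3A was at 469, 527 and 470.3 CPM without drug, 399, 372 and 339.5 with 0.15 µM, 373, 504 and 342 with 0.25 µM, 578, 585 and 369 with 0.5 µM and 525, 557 and 484 with 1 µM. Its libraries at 1 µM overlapped the untreated ones (log2 fold change 0.10, SE 0.18, edgeR adjusted p = 0.660), and it was called at no dose, although without the outlying replicate 3 libraries its change of -0.40 at 0.15 µM had an edgeR adjusted p of 0.00674. Of its exon bases 25.1% occur elsewhere in the genome in stretches of at least 100 bases, so its counts are uncertain.

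H1-10, the replacement linker histone, rose from 143, 129 and 149 CPM without drug to 313, 395 and 309 CPM with 1 µM, with no overlap (log2 fold change 1.27, SE 0.30, edgeR adjusted p = 0.00160). H3-5, a testis-enriched variant, was low throughout, at 3.68, 3.86 and 5.17 CPM and 8.34, 4.63 and 6.76 CPM (log2 fold change 0.63, SE 0.26, edgeR adjusted p = 0.0376). These libraries overlapped, and the call was lost without untreated replicate 1 or 2 or without 1 µM replicate 1 or 3, where the change ran from 0.43 to 0.61. MACROH2A2, the paralogue of MACROH2A1, rose from 0.245, 0.348 and 0.157 CPM to 1.67, 2.18 and 0.976 CPM (log2 fold change 2.66, SE 0.47, edgeR adjusted p = 5.90e-05). Its untreated level was near the limit of detection, at 6, 9 and 4 counts. It was the replacement gene called higher at 0.15 µM, a call that was lost when some single libraries were left out. H3-7 stayed near the limit of detection, at 0, 0.0772 and 0.235 CPM and 0.0710, 0.553 and 0.105 CPM (log2 fold change 1.18, edgeR adjusted p = 0.335).

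**Figure D5:**
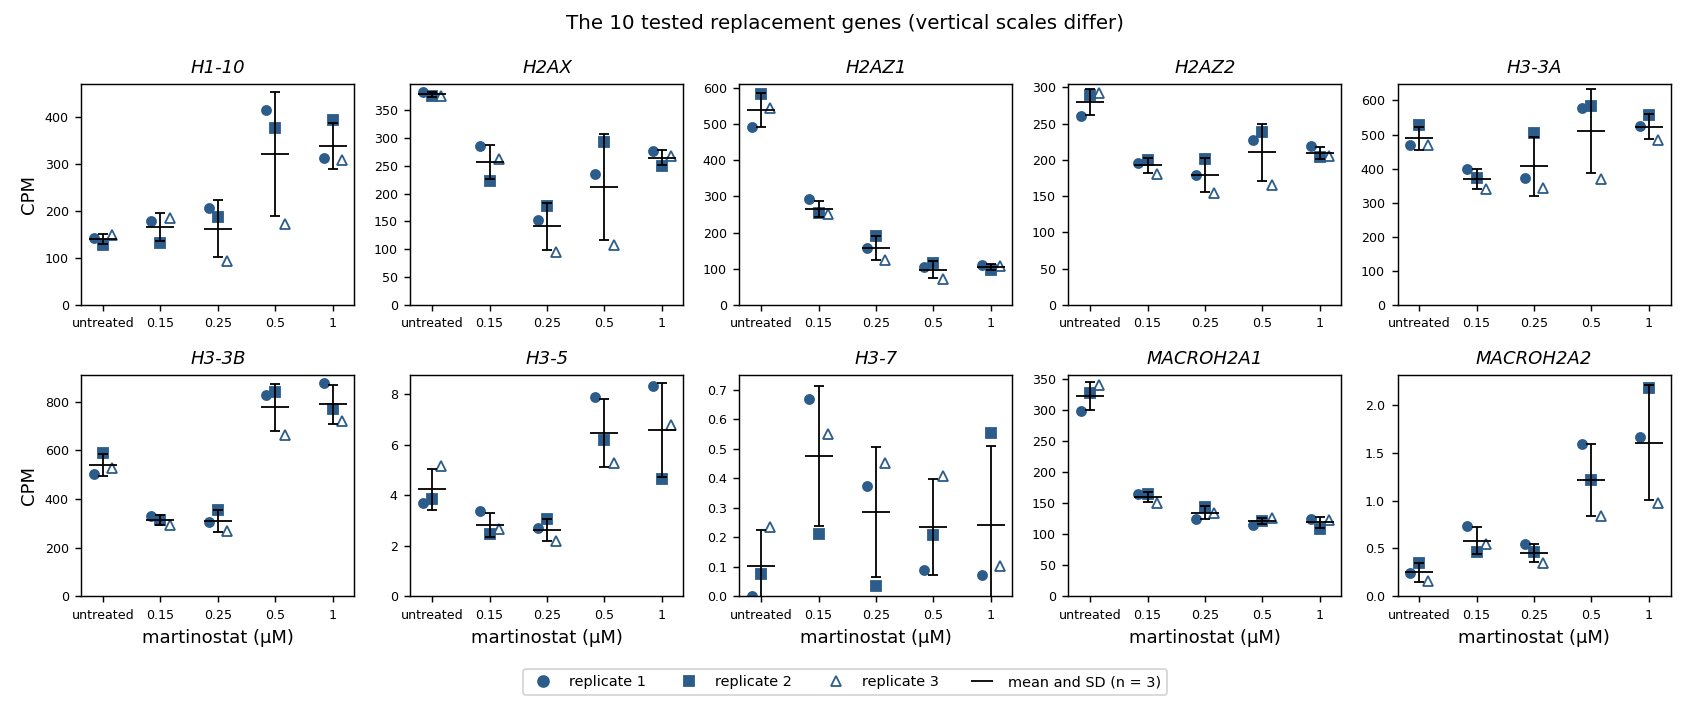
CPM in each library (vertical axis, from 0, with a scale of its own in each panel) against the martinostat dose in µM for the 10 replacement genes tested, with points for libraries and bars for the mean and SD. H2AZ1 and MACROH2A1 are lower in all treated libraries, H3-3B dips at 0.15 and 0.25 µM and ends above its untreated level, and H3-3A overlaps it at 1 µM.

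By annotated end, both kinds of replication-dependent genes rose at 1 µM. Annotated transcripts reached more than 200 bases past the stop codon in 12 of 71 replication-dependent and 12 of 14 replacement genes. Of the 12 replication-dependent genes with such an end 9 were higher (median log2 fold change 1.82), and of the other 40 tested 27 were higher (median 1.49), against 38.8% of all genes. By level, 17 of 22 genes averaging 10 CPM or more over all libraries and 19 of 30 below that rose, while by the untreated libraries alone 29 of 43 genes at 1 CPM or more and 7 of 9 below that rose. Either level shares libraries with the change itself, and no test of these splits was made. Some genes below 1 CPM in untreated cells passed the filter only through treated libraries, as H3C1 did with 3, 0 and 4 untreated counts. The 7 of 9 is thus partly fixed by the filter. Among the replication-dependent genes, 63 of 71 had coding transcripts of a single exon only, against 6 of 14 replacement genes. All exon bases of 7 replication-dependent genes (H2AC18, H2AC19, H2BC12L, H3C14, H3C15, H4C14 and H4C15) recur elsewhere in stretches of at least 100 bases, so their counts are uncertain.

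Against untreated cells, most factors that make and handle histones were lower, but not at the step from 0.25 to 0.5 µM. Of 16 genes for transcription and 3′ processing of histone RNA, all tested, 13 fell and none rose at 0.15 µM, beside 19.4% lower among all genes, while 13 fell and 1 rose at 1 µM, beside 27.5% lower and 38.8% higher. From 0.25 to 0.5 µM, where 36 replication-dependent genes rose, 9 of these 16 rose too and none fell, beside 14.4% higher among all genes. SLBP, the stem-loop binding protein, had 177, 205 and 188 CPM untreated, then 99.6, 93.6 and 90.3 with 0.15 µM, 43.8, 47.3 and 45.8 with 0.25 µM, 57.9, 64.8 and 46.8 with 0.5 µM and 60.1, 57.9 and 56.8 with 1 µM. All treated libraries were below all untreated ones (log2 fold change -1.71, SE 0.13, edgeR adjusted p = 1.90e-09 at 1 µM). LSM10, a subunit of the U7 snRNP that directs cleavage of histone pre-mRNA, fell by 1.20 and ZNF473, a protein of the same particle, by 0.70 on the log2 scale at 1 µM. NPAT, the coactivator of the histone clusters, had a log2 fold change of -0.47 (edgeR adjusted p = 0.0410), a call lost in 14 of 17 alternative settings. CASP8AP2 at -0.16 (edgeR adjusted p = 0.511) and LSM11 at -0.17 (edgeR adjusted p = 0.227) did not pass, and HINFP, an activator of H4 genes, was the one gene called higher, at 0.83.

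Of 31 histone chaperones and deposition factors 19 fell and none rose at 0.15 µM, while 23 fell and 2 rose at 1 µM, with a median log2 fold change of -1.18. Of all tested genes 19.4% were lower at 0.15 µM, and 27.5% lower and 38.8% higher at 1 µM. From 0.25 to 0.5 µM 6 chaperones rose and 1 fell, with a median of 0.06. The chaperones of replication-coupled deposition CHAF1A and CHAF1B, subunits of CAF-1, changed by -1.41 and -1.13, and NASP, which holds soluble H3 and H4, by -1.82. The H3-H4 chaperones ASF1A and ASF1B parted, at -1.18 and 1.07, both called. DAXX, which deposits H3.3 at heterochromatin, fell by 1.27 on the log2 scale. HIRA, which deposits H3.3 at active genes, was at -0.37 (edgeR adjusted p = 0.0298, lost in 13 of 17 alternative settings) and ATRX, the partner of DAXX, at -0.03 (edgeR adjusted p = 0.834), and both values turned positive with TMM over genes of at least 10 CPM. The centromeric H3 variant CENPA and its chaperone HJURP, outside the symbol rule, changed by -1.02 and -1.57.

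Markers of S phase, in which replication-dependent genes are normally transcribed, were mostly lower than untreated at every dose and lowest by median at 0.25 µM, where the histone median was 0.18. The 15 S phase genes summed to 5381 to 5904 CPM without drug, 2562 to 2881 CPM with 0.15 µM, 1176 to 1529 CPM with 0.25 µM, 1051 to 1904 CPM with 0.5 µM and 1649 to 1817 CPM with 1 µM. Of these genes 13 were lower at 0.15 µM and 14 at 1 µM, beside 19.4% and 27.5% of all tested genes. None was higher at either dose, and RRM2 was the one not called at 1 µM. Their median log2 fold change was -1.19 with 0.15 µM and -2.25 with 0.25 µM, then -1.73 with 0.5 µM and -1.63 with 1 µM. From 0.25 to 0.5 µM 5 of the 15 rose and 2 fell, with a median of 0.35, beside 14.4% higher and 16% lower among all genes. Of the 7 K562 markers 6 were lower and 1 higher at 1 µM. The erythroid factor GATA1 was at 323 to 335 CPM untreated and 15.3 to 20.8 CPM with 1 µM, the embryonic globin HBZ at 986 to 1090.0 CPM and 74.1 to 93.4 CPM, and the transferrin receptor TFRC at 1125 to 1344 CPM and 424 to 542 CPM. The one called higher was HBE1, near the limit of detection, at 0.0818 to 0.270 CPM and 0.244 to 0.745 CPM, ranges that overlapped. The 7 markers of other cells summed to 157 to 175 CPM and 329 to 518 CPM, and of the 6 tested 2 were higher and 2 lower. Of the 7, the B cell marker MS4A1 was at 0 in all untreated libraries. EPCAM, an epithelial marker, was at 130.2 to 148 CPM untreated and 18.6 to 22.3 CPM with 1 µM, and COL1A1, a fibroblast marker, at 3.32 to 5.19 CPM and 292 to 473 CPM, which made up most of the sum at 1 µM. COL1A2, which encodes the other chain of the same collagen, went the other way, from 16.6 to 20.7 CPM to 8.23 to 12.4 CPM. The part of cell cycle, cell identity and these markers in the histone results was not tested.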

How the data were processed

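The deposited raw counts per gene were used for 15 libraries in 5 groups, taken from the labels. Per the study's methods and the submitters' processing notes, the authors trimmed reads with Trim Galore 0.6.10 and Trimmomatic, aligned them to hg38 with HISAT2 2.2.1, sorted with SAMtools 1.21 and counted with featureCounts 1.5.3 on GENCODE Release 38, with a strand setting not given in the sources used here. The authors also deposited FPKM values per library, used here only for alternative tests with limma 3.58.1 on log2(FPKM + 1) and log2(FPKM + 0.1). Counts were kept by filterByExpr (23711 of 60649 genes), scaled by TMM and fitted in all 15 libraries with the quasi-likelihood test of edgeR 4.0.16 in R 4.3.3 (residual df 10, common dispersion 0.0520), with Benjamini-Hochberg adjustment over all genes tested and a threshold of 0.05. The fit was also run on simulated counts with a small set of genes changed at 1 µM, a fixed dispersion and no outlying library. These settings differ from the data, so that run does not test the scaling or the calls made here. DESeq2 1.42.0 was an alternative, and so were other scalings, filters and sets of libraries. Library totals ran from 23755510 to 32805574 counts and TMM factors from 0.784 to 1.28. Intervals on counts cover counting error only.

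Gene positions, overlaps and stem-loops came from GENCODE v44 on hg38, matched to the count table by gene identifier without its version. Symbols were matched in the same way, and 99.8% of the genes in the count table received one. Repeated exon stretches were found with BLAST+ 2.17.0, and promoters of 300 bases came from RefSeq (GRCh38.p14). Replicates within a group differed by more than counting noise (chi-square of at least 5.85 for each degree of freedom), and none was counted as a duplicate. The labels number the replicates but state no shared batch. Same-numbered libraries at 0.25 and 0.5 µM deviated together (correlations from 0.266 to 0.579), the other 9 pairs of groups gave -0.0663 to 0.0918, and no block was used.

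The members and the lists were chosen with earlier results of these data known. Named were all tested replacement genes, the 10 replication-dependent genes of highest mean CPM, the 4 largest and the 4 smallest called rises at 1 µM by log2 fold change, and 16 core factors of the pathway lists. H1-4, H2AC4, H2AC8, H2AC13, H2BC11, H2BC18, H3C7, H4C1, H4C3 and H4C5, the other trajectory genes, HINFP, RRM2 and the pseudogenes were named after their values were seen. Values of some listed genes, and the sum of the K562 marker list, are not reported here.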

Additional observations from a re-analysis of the deposited data

Results flagged for a closer look

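H1-4 and H3-3B stood out because their change turned with the dose. H1-4 was lower at 0.15 µM in 3 of 3 libraries and higher at 1 µM in 3 of 3 libraries than every untreated library, and its log2 fold change between 1 and 0.15 µM was 2.24. H3-3B did the same, with 1.33 between these doses. Both were picked for being called lower at 0.15 µM and higher at 1 µM, which fixes the direction between these doses, so the values are descriptions with no test. The pattern was found in 2 of 62 tested histone genes and in 0.536% of all tested genes, and the comparisons with untreated cells share the untreated libraries.

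Histone pseudogenes lie outside the protein-coding genes compared above. Of 11 tested, 7 were called higher at 1 µM, against 38.8% of all tested genes. The 2 of these that averaged at least 1 CPM in untreated cells are given here. H2BC19P was at 2.41, 2.63 and 2.19 CPM in untreated cells and 12.7, 10.6 and 11.0 CPM at 1 µM, a log2 fold change of 2.24 (SE 0.34, edgeR adjusted p = 9.79e-06). H2BC20P was at 7.28, 7.69 and 6.81 CPM and 30.7, 26.3 and 29.4 CPM, a log2 fold change of 1.99 (SE 0.41, edgeR adjusted p = 6.07e-04). In neither did the groups overlap. As copies of H2B genes they may share reads with them, so their counts are uncertain.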

How the results depend on the processing

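The rise of the replication-dependent genes at 0.5 and 1 µM held under every alternative run, while the counts at 0.15 µM depended on the setting. At 0.15 µM the replication-dependent genes called went from 11 to 17 with library totals, TMM on genes of at least 10 CPM or limma on log2(FPKM + 0.1), to 20 with only the libraries compared, and to 21 (12 higher, 9 lower) without replicate 3 at 0.25 and 0.5 µM, an alternative chosen after seeing the data. Replacement genes called there went from 5 to 3 with limma at either pseudocount and to 8 without those libraries. At 0.5 µM the replacement count went from 8 to 5 with at least 10 counts in every library, where 8 genes were tested. Between 0.15 and 0.25 µM the 9 histone genes called became 14 with library totals and 19 without those libraries. Without the highest member of each class the ratio of sums was 0.961 untreated, 1.34 at 0.15 µM, 1.60 at 0.25 µM and 2.35 at 1 µM. With TMM on genes of at least 10 CPM, HIRA turned from -0.37 to 0.0062 and ATRX from -0.03 to 0.34 at 1 µM. Except where a setting tests fewer genes or libraries, the cause was not tested.

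Leaving out 1 library at a time gave 10 to 13, 20 to 25, 34 to 37 and 34 to 35 replication-dependent calls from the lowest to the highest dose, and 4 to 5, 5 to 7, 6 to 7 and 5 to 6 replacement calls. Between doses it gave 4 to 9 (0.25 against 0.15 µM, 4 without 0.15 µM replicate 1 and 5 without 0.15 µM replicate 2), 32 to 47, 0 to 0 and 38 to 41 calls. At 1 µM H2AZ2 lost its call without untreated replicate 2 or 3 or 1 µM replicate 2 or 3 (-0.41 to -0.39), and NPAT without any 1 of the 6 libraries (-0.52 to -0.38). HIRA lost it in 5 of 6 (-0.39 to -0.27). H3-4 lost its call at 0.15 µM without 0.15 µM replicate 1 (2.85, edgeR adjusted p = 0.0545). MACROH2A2 lost its call at 0.15 µM without untreated replicate 1 or 3 or 0.15 µM replicate 1 or 3 (0.96 to 1.24). With the replicate block, 37 replication-dependent genes were called at 1 µM (36 higher, 1 lower) against 36, and no count moved by over 1.5 times. The replicate numbers share no stated batch. Depth left 21 histone genes untested, all with at most 16 counts in a library.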

Other observations

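Of 11 histone pseudogenes tested, 7 were higher and 1 lower at 1 µM by the quasi-likelihood test of edgeR, where 38.8% and 27.5% of all tested genes were called. The one that fell was H2AZ2P1, a pseudogene of the replacement gene H2AZ2, at 3.72, 2.74 and 3.52 CPM in untreated cells and 2.34, 1.52 and 1.22 CPM at 1 µM (log2 fold change -0.97, SE 0.40, edgeR adjusted p = 0.0377). These genes were named after their values were seen, and how their reads were placed was not tested.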
